A study of Rattus norvegicus with 30 samples.

Results

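Collagens, laminins, other matrix proteins, integrins and the enzymes and binding proteins around them were followed in rat cortical neuron cultures that overexpressed αSyn 3K. The group holds 40 genes, listed by symbol and chosen with earlier results of these data known. They are the collagen chaperone Serpinh1, the collagens, the laminins, other matrix proteins, integrins and other adhesion receptors. The insulin-like growth factor binding proteins (Igfbp) and matrix proteases with their inhibitors complete the group. A row was found for 39 of the 40 symbols, among 32883 genes, and Col1a2 was not analysed here. Of these, 33 had a normalized count of 10 or more in 5 or more libraries and were tested, among 12911 genes in all.

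Primary cultures of Sprague Dawley rat cortex, taken at gestational day E16 and separated from the meninges, received AAV9 on day in vitro 5. The virus carried human αSyn 3K under the CAG promoter (3K), or the same vector with no insert (EV). αSyn 3K is a form of α-synuclein with glutamate-to-lysine changes that was toxic to neurons and astrocytes in the study's cell counts. The CAG promoter is active in most cell types, so the transgene was not limited to neurons by design. The library titles carry PBS in every group, which both treatments share. Sequencing covered 5 libraries for each treatment at each of days 6, 12 and 19 after AAV9, 30 in all. The sources do not say whether the 5 libraries of a group came from separate cultures, so p-values measure the spread between these libraries, which may be technical.

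The extracellular matrix of the brain differs from that of other organs. Fibrillar collagens are scarce outside the meninges and large vessels, while a basement membrane of type IV collagen, laminins and nidogen lines vessels and the pial surface. Laminins are trimers of 1 α, 1 β and 1 γ chain, and nidogen links them to type IV collagen. Cells hold on to the matrix through integrins, pairs of an α and a β subunit, and through other receptors such as the collagen-binding kinase Ddr1. Astrocytes, vascular cells and fibroblasts make most of these proteins, and metalloproteases such as Mmp2 cut them.

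The whole reads behind the values summed to between 4747019 and 7035869 in a library (median 6000988). The αSyn 3K vector had a normalized count of at least 3801 in every 3K library and at most 249.8 in every EV library. Markers of astrocytes and neurons were abundant (summed normalized counts of at least 16226 and 25900 in each library). Markers of endothelium and of microglia were nearly missing, with summed counts of at most 18.3 over 9 genes and at most 4.33 over 11 genes in each library, and Cldn5, Cdh5 and Tie1 of endothelium were at 0 in all libraries. The 10 markers of fibroblasts and meninges summed to 67.5 to 321 and the 10 of mural cells to 260.0 to 532. Of the former, Dcn, Twist1, Lum and Foxc1 had means of 189, 34.0, 21.8 and 11.4 in EV at day 19. Foxd1, Aldh1a2 and Tbx18 were at 0 in every EV library at days 12 and 19 and at 2.86 or less in 3K. Ogn, Slc6a13 and Osr1 were at 6.11 or less in every library. Notch3 alone, with group means of 246 to 414, made up the larger part of the mural sums. Of the other mural markers, Rgs5, Acta2, Kcnj8, Des and Anpep were at 3.26 or less in every library. The normalized counts below are read counts per gene divided by a size factor per library, so levels were not compared between genes, which differ in length.

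Of the 33 members tested, 10 differed between 3K and EV at 1 or more days, by limma on log2(normalized count + 1) with an adjusted p under 0.05 over all genes tested. At day 6, 1 member was lower in 3K and 0 were higher, while 0.0852% of all genes tested were called lower and 0.139% higher. At day 12, 5 members were lower and 0 higher, with 0.256% of all genes called lower and 0.178% higher. At day 19, 4 members were lower and 5 higher, with 4.08% of all genes called lower and 3.78% higher. The members were chosen with earlier results of these data known, so these shares give no independent test of the group. The median log2 fold change of the 33 members was -0.048 at both day 6 and day 12 and 0.064 at day 19, and over all genes tested it was -0.002, 0.0024 and -0.0031. At day 12 the called members were the collagen chaperone Serpinh1, the proteoglycan Podn, the adhesion molecule Vcam1, the integrin subunit Itgb5 and Igfbp2. At day 19 all of these but Itgb5 were lower, while fibronectin (Fn1), Ddr1, Sparc, Nid1 and Fstl1 were higher. Of the members that limma did not call higher, 0 had an unadjusted p under 0.05 in that direction at day 6 and 3 at day 12, and edgeR and DESeq2 also called 0 higher at both days.

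**Figure D1:**
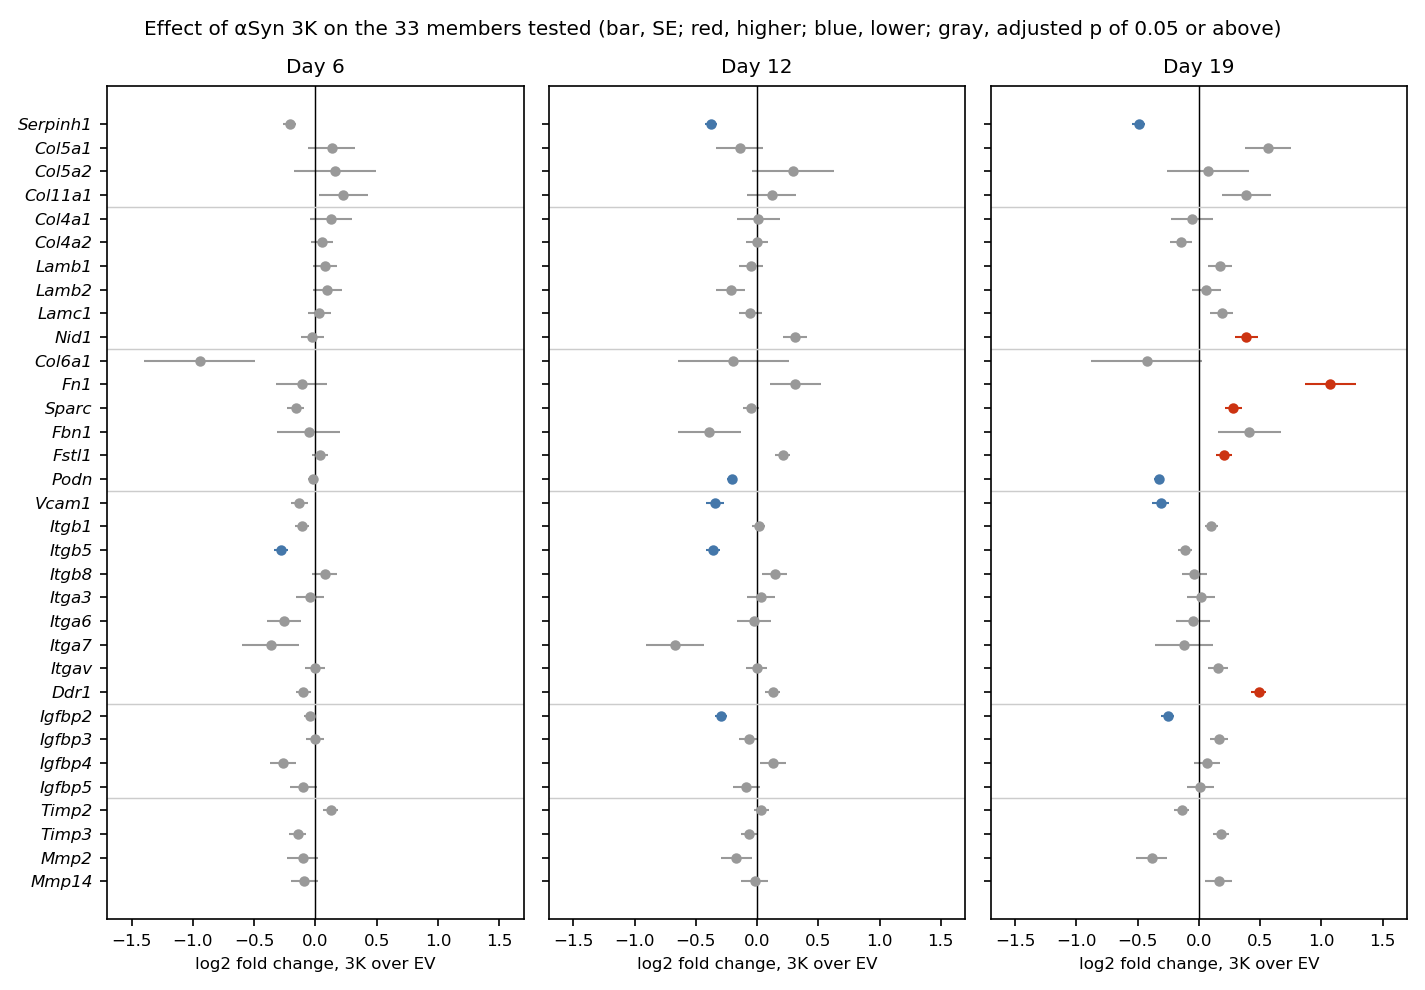
Log2 fold change of 3K over EV (horizontal axis) for each of the 33 members tested (rows, grouped by role), at days 6, 12 and 19. Points are limma estimates with bars of 1 SE, blue for lower, red for higher and gray for an adjusted p of 0.05 or above. Serpinh1 lay furthest to the left of the called members at day 19 (-0.49) and Fn1 furthest to the right (1.07).

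Serpinh1 (ENSRNOG00000016831) codes for Hsp47, the chaperone of the endoplasmic reticulum that binds folded procollagen. In EV at day 19 its normalized counts were 1490.4, 1562, 1413, 1542 and 1507, and in 3K they were 1139, 1094, 999.7, 1042 and 1069.6. Every 3K library was below every EV library. The means were 1503 ± 57.8 (SD, 5 libraries) in EV and 1069 ± 52.4 (SD, 5 libraries) in 3K, a ratio of 0.711 and a log2 fold change of -0.49 ± 0.051 (SE, limma, adjusted p 3.6e-08). At day 12 the counts were 956, 1102, 1027, 1119 and 1131 in EV and 849.5, 822, 811, 802 and 823 in 3K. The groups were again apart, with a log2 fold change of -0.37 ± 0.051 (SE, limma, adjusted p 4.5e-05). An exact two-sided permutation test gave p = 0.0079 at days 12 and 19, the smallest that 5 against 5 libraries allow. At day 6 the means were 822 ± 61.5 (SD, 5 libraries) in EV and 709.6 ± 41.5 (SD, 5 libraries) in 3K, the libraries of the groups overlapped, and the log2 fold change was -0.21 ± 0.051 (SE, limma, adjusted p 0.071). DESeq2 called Serpinh1 lower at day 6 too, as did limma without the EV library of replicate 3.

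Reads of the main fibrillar collagens, which this chaperone helps to fold, were few. Col1a1, the α1 chain of type I collagen, was at 0 to 6.52 in all libraries but 2, at 64.8 in the 3K library of replicate 3 at day 19 and at 35.1 in the EV library of replicate 5 at day 19. Col3a1, type III collagen, reached its highest value, 31.8, in the same 3K library, and was between 0 and 13 elsewhere. Both stayed under the filter and were not tested. The markers of fibroblasts and meninges summed to 321 in that 3K library, against 254 to 284 in the other 3K libraries at day 19, and to 245 in that EV library, against 244 to 291 in the others. The part of these cells in the collagen counts was not tested. Col5a1, Col5a2 and Col11a1, chains of the minor fibrillar collagens V and XI, did not pass the test at any day. At day 19 Col5a1 had a log2 fold change of 0.56 ± 0.19 (SE, limma, adjusted p 0.062), with normalized counts of 74.7, 84.0, 79.4, 71.7 and 66.3 in 3K and 59.0, 48.2, 40.1, 52.8 and 53.7 in EV. edgeR and DESeq2 on the recovered reads both called Col5a1 higher at day 19. The values for Col11a1 and Col5a2 were 0.39 ± 0.2 (SE, limma, adjusted p 0.28) and 0.077 ± 0.34 (SE, limma, adjusted p 0.94).

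Nid1 (ENSRNOG00000002461), which codes for nidogen-1, was the member of the basement membrane called higher in 3K than in EV at day 19. Its normalized counts were 306, 386, 323, 294 and 326 in 3K and 266, 231, 210.2, 260.4 and 283 in EV. All 3K libraries were above all EV libraries, with means of 327 ± 35.3 (SD, 5 libraries) and 250.03 ± 29.1 (SD, 5 libraries), a ratio of 1.31 and a log2 fold change of 0.39 ± 0.095 (SE, limma, adjusted p 0.0077). At day 12 the counts were 532, 508, 556, 681 and 506 in 3K and 410.4, 389.6, 492, 446 and 504 in EV, with no overlap and an exact permutation p of 0.0079, but the log2 fold change of 0.31 ± 0.095 (SE, limma, adjusted p 0.21) did not pass the test over all genes. At day 6 it was -0.024 ± 0.095 (SE, limma, adjusted p 1).

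The other members of the basement membrane did not pass the test between 3K and EV. At day 19 the laminin β1, β2 and γ1 chains Lamb1, Lamb2 and Lamc1 had log2 fold changes of 0.17, 0.063 and 0.19. The type IV collagens Col4a1 and Col4a2 had -0.057 and -0.15. The smallest adjusted p of these 5 was 0.26 (limma, Lamc1). Lama4, a laminin α chain of vessels, and Col18a1, the source of endostatin, were under the filter, at 0 to 14.7 and at 0 to 12.2.

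Col4a1 and Col4a2, which code for the α1 and α2 chains of type IV collagen, lie head to head and share their promoter, so the letters between their starts are shown. In RefSeq's GRCr8 assembly, 76 bases (chr16:84885521-84885596, plus strand, 78.9% G or C) lie before both starts. The letters of 5 motifs were searched on both strands: the GC box GGGCGG, the TATA box TATAAA, the CCAAT box CCAAT, the AP-1 site TGACTCA and GAANNTTC, a pair of heat shock element units. The capitals mark a GC box read on the other strand, the only match in this stretch.
Col4a1 and Col4a2: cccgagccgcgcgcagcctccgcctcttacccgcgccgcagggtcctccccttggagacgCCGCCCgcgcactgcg
In EV both collagens rose from day 6 to day 12, Col4a1 by 0.47 ± 0.17 (SE, limma, adjusted p 0.027) and Col4a2 by 0.31 ± 0.09 (SE, limma, adjusted p 0.0056) on the log2 scale. From day 12 to day 19 Col4a2 fell, with a log2 fold change of -0.36 ± 0.09 (SE, limma, adjusted p 0.0016), while Col4a1 had -0.14 ± 0.17 (SE, limma, adjusted p 0.54). Col4a2 counts were 409, 395, 399, 319 and 354 in EV at day 12 and 282, 321, 272, 293 and 292 at day 19. The difference between the genes was not tested.

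Fn1 (ENSRNOG00000014288), which codes for fibronectin, a ligand of several integrins, had the largest change in 3K of the members that passed. At day 19 its normalized counts were 134, 185, 227, 126 and 183 in 3K and 93.5, 73.6, 50.9, 76.9 and 113 in EV. The lowest 3K library was above the highest EV library. The means were 171 ± 41.6 (SD, 5 libraries) and 81.5 ± 23.1 (SD, 5 libraries), a ratio of 2.10 and a log2 fold change of 1.07 ± 0.21 (SE, limma, adjusted p 0.00084). The highest of the 3K values came from the library with the most Col1a1, and without it the log2 fold change was 0.96 (adjusted p = 0.005, limma). At days 6 and 12 the groups overlapped, with log2 fold changes of -0.11 and 0.31.

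Sparc (ENSRNOG00000012840) codes for osteonectin, a collagen-binding protein that astrocytes secrete. At day 19 its counts were 3562, 4394, 3687, 3199 and 3546 in 3K and 2808, 3076, 3006, 3146 and 3012 in EV. The 3K libraries were all higher, with a ratio of means of 1.22 and a log2 fold change of 0.28 ± 0.068 (SE, limma, adjusted p 0.0061). Before that the groups overlapped, and the log2 fold change was -0.16 at day 6 and -0.051 at day 12. Fstl1 (ENSRNOG00000002746), a secreted relative of Sparc, was at 293, 327, 312, 283 and 346 in 3K and 273, 253, 286, 279.6 and 260.4 in EV at day 19. These groups overlapped, and the log2 fold change was 0.21 ± 0.063 (SE, limma, adjusted p 0.038). The call was lost without any 1 of 6 libraries of day 19 (3K replicates 2, 3 and 5, EV replicates 1, 2 and 5), where the adjusted p was up to 0.13 (limma).

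Podn (ENSRNOG00000011413) codes for podocan, a small proteoglycan with leucine-rich repeats that binds type I collagen. It was lower in 3K than in EV at day 19, with counts of 2357, 2519, 2499.7, 2481 and 2533 in EV and 1971, 1896, 1981, 2087 and 1936 in 3K. No library of a group reached the other group, and the means of 2478 ± 70.4 (SD, 5 libraries) and 1974 ± 71.2 (SD, 5 libraries) gave a ratio of 0.797 and a log2 fold change of -0.33 ± 0.041 (SE, limma, adjusted p 1.8e-06). At day 12 the counts were 1715, 1713, 1737, 1768 and 1838 in EV and 1552, 1509.5, 1493, 1511 and 1560.0 in 3K, with a log2 fold change of -0.20 ± 0.041 (SE, limma, adjusted p 0.011). The groups were apart then as well. At day 6 the means were 949 ± 70.7 (SD, 5 libraries) in EV and 937 ± 51.7 (SD, 5 libraries) in 3K, and the libraries overlapped. Fibrillin-1 (Fbn1) and collagen VI (Col6a1) did not pass the test, with log2 fold changes at day 19 of 0.41 ± 0.26 (SE, limma, adjusted p 0.4) and -0.43 ± 0.45 (SE, limma, adjusted p 0.68), and Col6a2 was under the filter at 0 to 9.46.

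Among the receptors, Ddr1 (ENSRNOG00000057125), a receptor tyrosine kinase that binds collagen, was higher in 3K than in EV at day 19. At day 19 its normalized counts were 963, 995, 1019, 829 and 1079.9 in 3K and 725, 616, 683, 674 and 781 in EV. The groups did not overlap, with means of 977 ± 93.2 (SD, 5 libraries) and 696 ± 61.4 (SD, 5 libraries), a ratio of 1.40 and a log2 fold change of 0.49 ± 0.062 (SE, limma, adjusted p 1.9e-06). At day 6 it was -0.099 ± 0.062 (SE, limma, adjusted p 0.84) and at day 12 0.13 ± 0.062 (SE, limma, adjusted p 0.6), with overlapping libraries at both days.

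Vcam1 (ENSRNOG00000014333), an adhesion molecule that binds integrin α4β1 and that astrocytes also make, was lower in 3K. At day 19 its counts were 994, 956, 948, 948 and 901 in EV and 806, 640.1, 849, 775 and 772 in 3K. The highest 3K library was below the lowest EV library, and the log2 fold change was -0.31 ± 0.07 (SE, limma, adjusted p 0.0039). The counts at day 12 were 721, 823, 834, 806 and 855 in EV and 653, 598, 648, 664 and 616 in 3K. The groups were apart, with a log2 fold change of -0.34 ± 0.07 (SE, limma, adjusted p 0.011). This call was lost without the 3K library of replicate 2, where the adjusted p was 0.052 (limma).

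Itgb5 (ENSRNOG00000001795), the integrin β5 subunit that pairs with αv and binds vitronectin, was lower in 3K at the earlier days. At day 6 its counts were 418, 429, 426, 469 and 432 in EV and 369, 342, 387, 305 and 386 in 3K. Every 3K library was below every EV library, and the log2 fold change was -0.28 ± 0.057 (SE, limma, adjusted p 0.017). The call at day 6 was lost without the 3K library of replicate 2 or 4 or the EV library of replicate 4, where the adjusted p was up to 0.081, and in a fit to the day 6 libraries alone, where it was 0.29 (limma). The counts at day 12 were 723, 651, 675, 708 and 608 in EV and 491, 578, 499.9, 523 and 522 in 3K. The groups did not overlap, and the log2 fold change was -0.36 ± 0.057 (SE, limma, adjusted p 0.00049). At day 19 the counts were 1001, 1033, 952, 952 and 1024 in EV and 912, 946, 942, 858 and 921 in 3K, apart by a narrow gap and with a log2 fold change of -0.12 ± 0.057 (SE, limma, adjusted p 0.25), so the test over all genes was not passed.

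The partner of Itgb5, the αv subunit Itgav, had log2 fold changes of -0.0036, -0.0041 and 0.16 at days 6, 12 and 19, none past the threshold. The β1 subunit Itgb1, which pairs with most α subunits of matrix receptors, had -0.11, 0.012 and 0.10. The β8 subunit Itgb8 and the laminin-binding α subunits Itga3, Itga6 and Itga7 also did not pass, with log2 fold changes at day 19 of -0.036, 0.018, -0.048 and -0.12. The collagen-binding α1 subunit Itga1 was under the filter, at 0 to 6.11.

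Igfbp2 (ENSRNOG00000016957) codes for a secreted protein that binds insulin-like growth factors and that astrocytes make. At day 19 its normalized counts were 2732, 3046, 2703, 2934 and 3174 in EV and 2274, 2549, 2404, 2351 and 2639 in 3K. The groups did not overlap, and the log2 fold change was -0.26 ± 0.049 (SE, limma, adjusted p 0.00084). The counts at day 12 were 2278, 2299, 2544, 2586 and 2315 in EV and 1879.6, 2036, 1839.7, 1949 and 2072 in 3K. These were apart too, with a log2 fold change of -0.30 ± 0.049 (SE, limma, adjusted p 0.001). The other binding proteins Igfbp3, Igfbp4 and Igfbp5 had log2 fold changes at day 19 of 0.16, 0.064 and 0.013 and did not pass the test.

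Of the 4 proteases and inhibitors, limma called 0 at any day, with 1 at an unadjusted p under 0.05 at day 6, 0 at day 12 and 3 at day 19. edgeR called 0 and DESeq2 called 1, Mmp2, lower at day 19. Mmp2, a gelatinase that cuts type IV collagen, came nearest, with a log2 fold change of -0.38 ± 0.12 (SE, limma, adjusted p 0.053) at day 19. Its counts were 171, 201, 165, 162 and 194 in EV and 109, 145, 150.3, 119.9 and 165 in 3K. Mmp14, which activates Mmp2 at the cell surface, had 0.16, and the inhibitors Timp2 and Timp3 had -0.14 and 0.18.

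**Figure D2:**
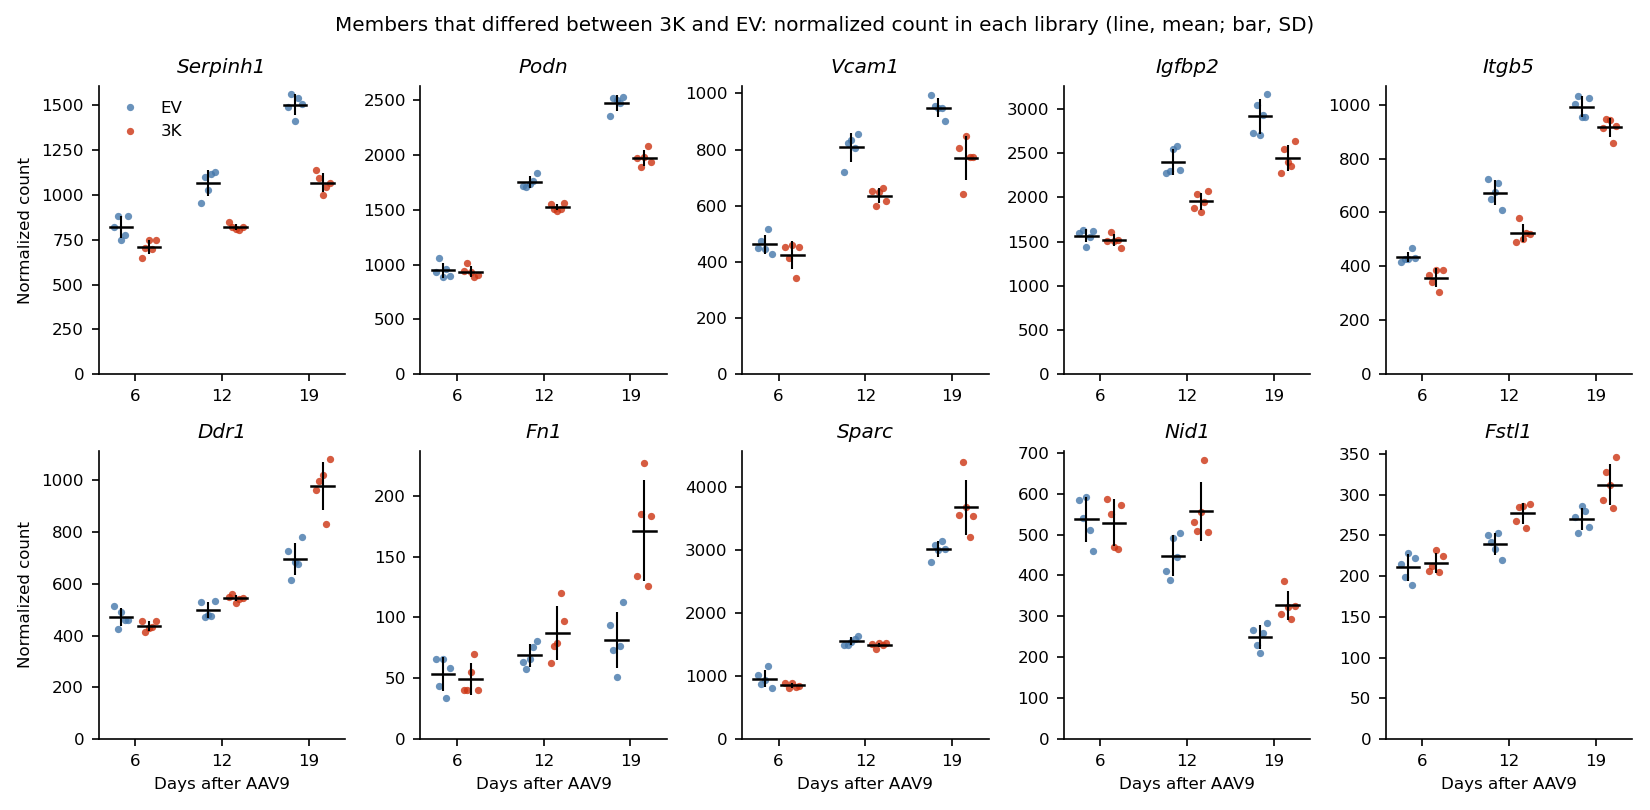
Normalized count (vertical axis, from 0) in each library of EV (blue) and 3K (red) at 6, 12 and 19 days after AAV9, for the 10 members that differed between 3K and EV. Each point is a library, horizontal lines are means and vertical bars are SD of 5 libraries. Serpinh1, Podn, Vcam1 and Igfbp2 had higher means at day 19 than at day 6 in both treatments, a difference that was tested in EV only, and lay lower in 3K at days 12 and 19, while Fn1 at day 19 was at 126 to 227 in 3K and at 50.9 to 113 in EV.

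Serpinh1, Podn, Vcam1 and Igfbp2 were the 4 members lower in 3K at both day 12 and day 19. The 250 bases before each start in RefSeq's GRCr8 assembly are shown for these genes, with matches to the same 5 motifs in capitals. The windows are Serpinh1 at chr1:163062977-163063226 (minus strand), Podn at chr5:128025058-128025307 (minus strand), Vcam1 at chr2:206742784-206743033 (minus strand) and Igfbp2 at chr9:81864561-81864810 (plus strand).
Serpinh1: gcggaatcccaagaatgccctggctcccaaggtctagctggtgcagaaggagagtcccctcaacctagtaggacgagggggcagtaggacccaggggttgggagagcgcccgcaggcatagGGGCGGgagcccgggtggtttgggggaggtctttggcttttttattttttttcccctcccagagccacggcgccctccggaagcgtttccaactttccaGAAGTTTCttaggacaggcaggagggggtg
Podn: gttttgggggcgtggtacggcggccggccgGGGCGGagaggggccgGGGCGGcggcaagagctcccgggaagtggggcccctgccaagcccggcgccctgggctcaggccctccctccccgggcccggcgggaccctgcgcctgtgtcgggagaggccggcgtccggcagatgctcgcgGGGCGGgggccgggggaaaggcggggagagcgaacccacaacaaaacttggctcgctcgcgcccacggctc
Vcam1: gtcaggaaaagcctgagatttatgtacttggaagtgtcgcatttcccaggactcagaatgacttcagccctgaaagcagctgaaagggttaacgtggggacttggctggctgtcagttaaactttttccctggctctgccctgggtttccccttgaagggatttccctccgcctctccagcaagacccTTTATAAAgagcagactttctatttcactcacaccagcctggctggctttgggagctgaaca
Igfbp2: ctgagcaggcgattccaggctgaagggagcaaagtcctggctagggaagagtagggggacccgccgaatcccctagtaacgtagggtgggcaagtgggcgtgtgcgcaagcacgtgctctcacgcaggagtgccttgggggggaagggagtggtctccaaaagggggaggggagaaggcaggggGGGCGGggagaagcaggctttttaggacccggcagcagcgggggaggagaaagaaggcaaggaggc
Serpinh1 held a GC box 129 to 124 bases before the start and a heat shock pair, GAAGTTTC, 30 to 23 bases before it. Podn held 3 GC boxes and Igfbp2 held 1. Vcam1 held no GC box but a pair of overlapping TATA boxes on opposite strands, TTTATAAA, 62 to 55 bases before the start. No motif of the 5 was found in all 4 windows. Of the 30 members with a window, 18 held a GC box, 4 a TATA box, 8 a CCAAT box, 1 an AP-1 site and 4 the heat shock pair. Over all 33469 windows of this length the shares were 30.5%, 12.9%, 34.0%, 4.05% and 7.23%. These matches describe the letters only.

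Some cell type markers also differed between 3K and EV. The 12 astrocyte markers summed to 30389 to 31441 in EV and to 26762 to 28755 in 3K at day 12, and to 56274 to 61910 in EV and 49271 to 57121 in 3K at day 19. At day 19, 5 of the 11 astrocyte markers tested were lower in 3K, among them Aldoc (log2 fold change -0.52 ± 0.058 (SE, limma, adjusted p 1.8e-07)) and Glul (-0.33 ± 0.055 (SE, limma, adjusted p 0.00011)), and 0 were called higher, with 1 higher at an unadjusted p under 0.05. The median log2 fold change of the 11 was -0.10. Gfap, the intermediate filament of astrocytes, had means of 6588 ± 783 in 3K and 4555 ± 1756 in EV, Gja1 5521 ± 634 and 5314 ± 174, and Sox9 1077 ± 61.1 and 1004 ± 29.8 (SD of 5 libraries each), with overlap in all 3 and no call. At day 12, 1 of the 11 astrocyte markers, Slc1a3, was lower by limma, with 7 at an unadjusted p under 0.05. At day 6 limma called 0, with 5 lower at an unadjusted p under 0.05. The neuronal markers summed to 31204 to 32818 in EV and to 28753 to 30316 in 3K at day 19. Of these, 3 of 11 were lower in 3K at day 19 (Slc17a7, Snap25 and Nefl) and 0 were called higher. At an unadjusted p under 0.05 (limma), 6 were lower and 1 was higher. Gad1 and Gad2 had higher means in 3K (623 and 906) than in EV (561 and 836), with overlap and no call. Among 10 oligodendrocyte markers Cnp was called higher, and among 8 progenitor markers tested 1 was higher (Nes) and 2 lower (Cdk1 and Hes5). Of the markers of mural cells Tagln was higher (1.03 ± 0.21 (SE, limma, adjusted p 0.0011)) and Notch3 lower (-0.34 ± 0.1 (SE, limma, adjusted p 0.035)) in 3K at day 19, and of those of fibroblasts and meninges Foxc1 was higher (1.03 ± 0.31 (SE, limma, adjusted p 0.037)), with 4 markers tested in both lists. The share of reads from mitochondrial genes was 4.50% to 5.14% in 3K and 3.94% to 4.56% in EV at day 19, and with it as a covariate 19 of the 20 calls of members in the 3K comparisons were kept, all but that of Fstl1 at day 19. In these bulk libraries, fewer cells of a type and less RNA per cell cannot be told apart. The study counted cells in other cultures, which received AAV9 at later ages. It reports a loss of both neurons and astrocytes with αSyn 3K, greater for astrocytes. The part of cell numbers in the differences of Serpinh1, Podn, Vcam1, Igfbp2, Fn1 and Ddr1 was not tested.

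**Figure D3:**
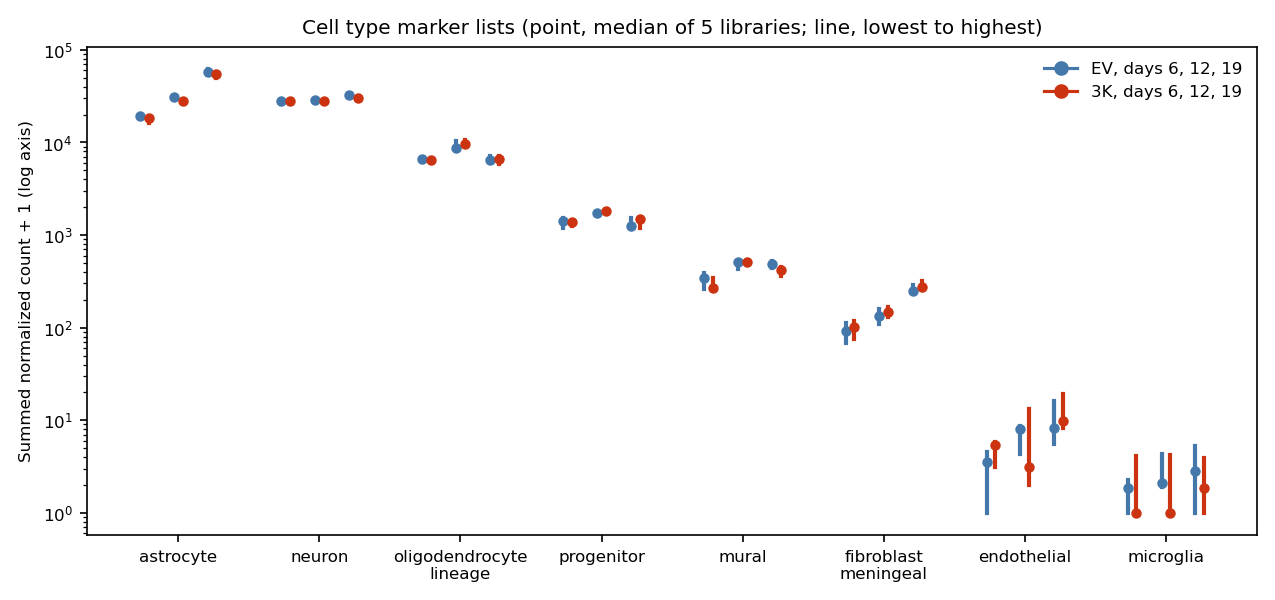
Summed normalized count plus 1 (vertical log axis) of 8 lists of cell type markers, in EV (blue) and 3K (red) at days 6, 12 and 19 from left to right. Points are medians of 5 libraries and lines run from the lowest to the highest library. The astrocyte list reached 56274 to 61910 in EV and 49271 to 57121 in 3K at day 19, and the endothelial and microglial lists stayed at 18.3 or less in every library.

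Whether the effect of αSyn 3K changed between day 6 and day 19 was asked by the difference between the fold changes of the 2 days. Of the 33 members, 3 had a higher and 2 a lower effect at day 19, with 0.736% of all genes called higher and 0.775% lower. Ddr1 had the smallest adjusted p, with a difference of 0.59 ± 0.088 (SE, limma, adjusted p 0.00014) on the log2 scale, followed by Podn with -0.31 ± 0.059 (SE, limma, adjusted p 0.0025) and Sparc with 0.44 ± 0.095 (SE, limma, adjusted p 0.01). For Ddr1 and Sparc the fold change was below 0 at day 6 and above 0 at day 19, although neither passed at day 6. Fn1 had a difference of 1.19 ± 0.29 (SE, limma, adjusted p 0.03) and Serpinh1 of -0.28 ± 0.072 (SE, limma, adjusted p 0.036). The call of Fn1 was lost in 12 of 20 fits that left out 1 library, with an adjusted p of up to 0.072, and that of Serpinh1 in 10 of 20, with up to 0.083 (limma). For Itgb5 the difference was 0.17 ± 0.081 (SE, limma, adjusted p 0.37), so that a smaller effect at day 19 was not shown.

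The EV cultures show how these genes changed with culture age, which is also time after AAV9. No culture without AAV9 was sequenced, so age and time after AAV9 cannot be told apart. From day 6 to day 19, 20 of 33 members rose and 3 fell, with 32.9% of all genes tested called higher and 32.2% lower. The median log2 fold change of the members was 0.56, and that of all genes 0.0011. Between days 6 and 12 the counts were also 20 and 3, beside 23.3% of all genes called higher and 21.2% lower. Between days 12 and 19, 15 members rose and 4 fell, beside 23.6% of all genes called higher and 21.7% lower. At each step more members rose than fell. Serpinh1, Sparc, Podn, Vcam1, Itgb5, Itgav, Igfbp2, Timp2 and Mmp14 were among those that rose at both steps, and Nid1 and Igfbp3 fell at both.

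**Figure D4:**
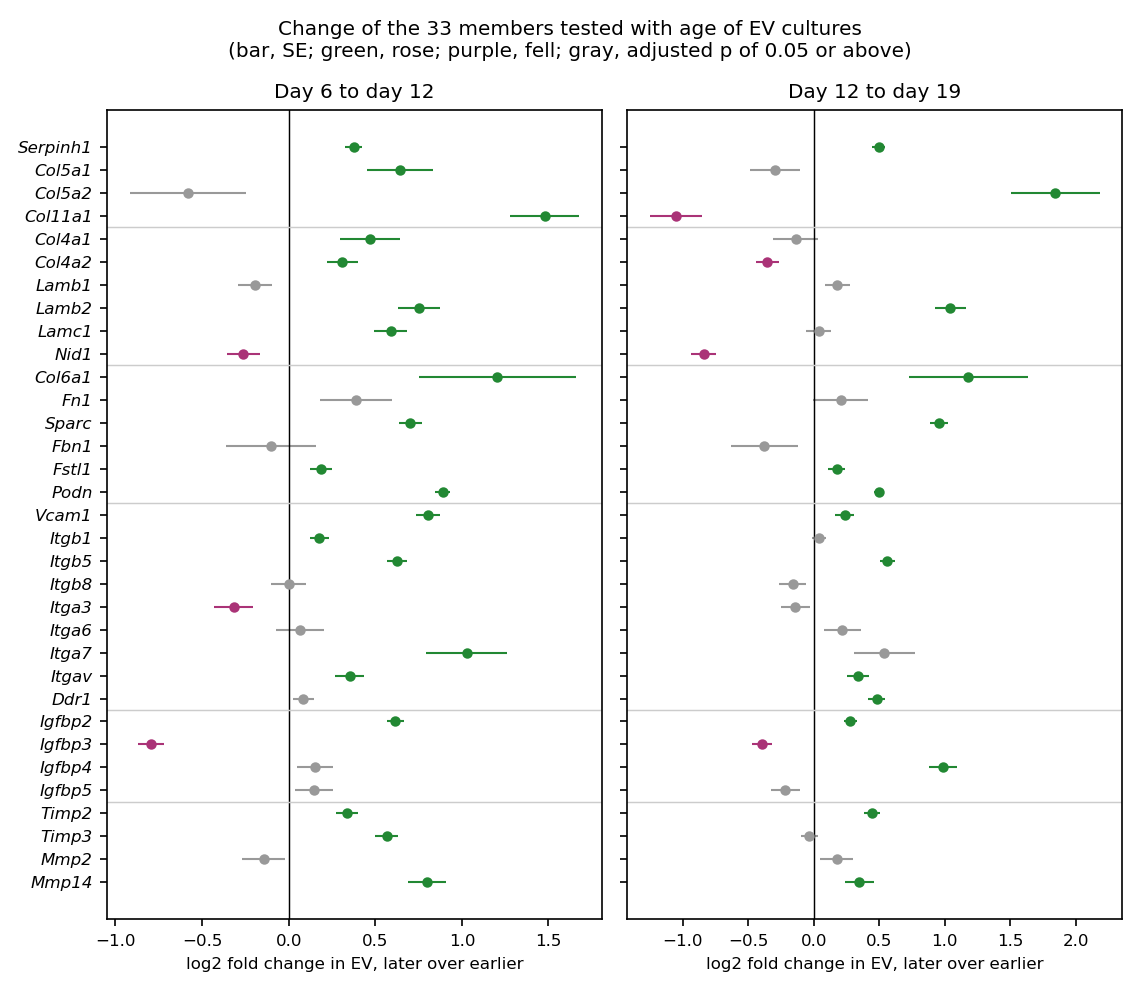
Log2 fold change with age in EV cultures (horizontal axes, day 12 over day 6 on the left and day 19 over day 12 on the right) for the 33 members tested. Points are limma estimates with bars of 1 SE, green for members that rose, purple for those that fell and gray for an adjusted p of 0.05 or above. On the left 20 members rose and 3 fell, and on the right 15 rose and 4 fell.

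Among fibrillar collagens and Serpinh1, Col5a2 rose most from day 6 to day 19 in EV, from 9.64 ± 4.23 (SD, 5 libraries) to 24.1 ± 9.46 (SD, 5 libraries) (log2 fold change 1.26 ± 0.34 (SE, limma, adjusted p 0.0015)), and none was called lower. Col11a1 rose to 85.3 ± 10.8 (SD, 5 libraries) at day 12, with a log2 fold change of 1.48 ± 0.2 (SE, limma, adjusted p 3.5e-07), and fell again to 40.6 ± 5.53 (SD, 5 libraries) at day 19, with -1.05 ± 0.2 (SE, limma, adjusted p 6.2e-05). In the basement membrane Lamb2, the β chain of laminins at synapses and vessels, rose from 90.7 ± 16.3 (SD, 5 libraries) to 313 ± 17.6 (SD, 5 libraries) (log2 fold change 1.79 ± 0.12 (SE, limma, adjusted p 2.2e-14)). Nid1 fell from 537 ± 54.7 (SD, 5 libraries) to 250.03 ± 29.1 (SD, 5 libraries) (log2 fold change -1.10 ± 0.095 (SE, limma, adjusted p 7.3e-12)). Lamb1, the other β chain, had -0.015 ± 0.097 (SE, limma, adjusted p 0.9) and the γ chain Lamc1 0.62 ± 0.094 (SE, limma, adjusted p 7.3e-07).

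Of the other matrix members Col6a1 rose most, from 3.16 ± 2.66 (SD, 5 libraries) to 19.6 ± 10.1 (SD, 5 libraries) (log2 fold change 2.38 ± 0.45 (SE, limma, adjusted p 3e-05)), at few reads. Fbn1 had the lowest value, -0.48 ± 0.26 (SE, limma, adjusted p 0.1), and did not pass. Sparc rose from 958 ± 135 (SD, 5 libraries) to 3009 ± 126 (SD, 5 libraries) (log2 fold change 1.66 ± 0.068 (SE, limma, adjusted p 4.2e-20)), the larger part of it after day 12. Among receptors Itga7 rose from 21.1 ± 8.52 (SD, 5 libraries) to 60.7 ± 8.56 (SD, 5 libraries) (1.57 ± 0.23 (SE, limma, adjusted p 6.8e-07)), and Itga3 fell from 203 ± 36.0 (SD, 5 libraries) to 146 ± 8.80 (SD, 5 libraries) (-0.46 ± 0.11 (SE, limma, adjusted p 0.00067)). Both are α subunits of laminin receptors.

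The binding proteins of insulin-like growth factors moved in both directions. Igfbp4 rose from 106 ± 16.5 (SD, 5 libraries) to 232 ± 20.9 (SD, 5 libraries) (1.14 ± 0.11 (SE, limma, adjusted p 4.5e-11)), and Igfbp3 fell from 436 ± 27.1 (SD, 5 libraries) to 191 ± 11.9 (SD, 5 libraries) (-1.19 ± 0.074 (SE, limma, adjusted p 3.1e-15)). Igfbp5 had -0.072 ± 0.11 (SE, limma, adjusted p 0.58). Among proteases and inhibitors Mmp14 rose from 266 ± 46.7 (SD, 5 libraries) to 585 ± 58.8 (SD, 5 libraries) (1.15 ± 0.11 (SE, limma, adjusted p 9.4e-11)), and none was called lower. The astrocyte markers summed to 18164 to 20280 at day 6 and to 56274 to 61910 at day 19 in EV. Those of fibroblasts and meninges summed to 67.5 to 111 and 244 to 291, and those of mural cells to 260 to 392 and 435 to 527. Most of the mural sums was Notch3, with means of 272 and 380 at these days. The neuronal sums were 25900 to 29208 and 31204 to 32818. The sums of the oligodendrocyte lineage and of progenitors overlapped between these days, but single markers moved in both directions. Of 10 oligodendrocyte markers limma called 3 higher and 5 lower at day 19, and of 8 progenitor markers tested 3 higher and 4 lower. Over all genes tested 32.9% were called higher and 32.2% lower. Sox10, for example, had means of 109 at day 6 and 11.9 at day 19, and Olig1 2811 and 3383. The part of these cell types in the rises was not tested.

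The comparisons of 3K with EV at day 19 and of EV at day 19 with day 6 share the EV libraries of day 19, so their values are given side by side only. Serpinh1, Podn, Vcam1 and Igfbp2 had log2 fold changes with age in EV of 0.87, 1.39, 1.04 and 0.89, and with 3K at day 19 of -0.49, -0.33, -0.31 and -0.26. Sparc, Ddr1, Fn1 and Fstl1 had 1.66, 0.56, 0.60 and 0.36 with age and 0.28, 0.49, 1.07 and 0.21 with 3K. Nid1 had -1.10 with age and 0.39 with 3K.

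Beyond the 40 members, 10 lists held 242 other genes of the matrix and of adhesion, of which 146 were tested. These lists too were chosen with earlier results of these data known, so the shares beside them give no independent test. At day 6 limma called 0, with 13 at an unadjusted p under 0.05, edgeR called 0 and DESeq2 called 2. At day 12, 1 was lower (Fkbp10, a prolyl isomerase of collagen folding), beside 0.256% of all genes tested that were called lower. At day 19, 18 were higher and 8 lower, beside 3.78% of all genes called higher and 4.08% called lower, so that the count of lower genes was near the share over all genes. Their median log2 fold change at day 19 was 0.096. By list, where a count of 1 among about 20 genes is near that share too, other collagens had 2 higher of 9 tested, and collagen processing had 1 higher of 22. Other laminins and basement membrane genes had 2 higher of 13, other integrins 0 of 4, and focal adhesion genes 1 higher and 1 lower of 23. Other proteases and inhibitors had 3 higher and 1 lower of 19, the insulin-like growth factor axis 1 higher and 1 lower of 9, and latent TGF-β genes 1 higher of 13. Other matrix glycoproteins had 3 higher and 4 lower of 22, and other adhesion receptors 4 higher and 1 lower of 12.

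Tnc codes for tenascin C, a glycoprotein of immature and reactive glia. It had 256 ± 41.2 in 3K and 94.6 ± 7.62 in EV (SD over 5 libraries) at day 19, a log2 fold change of 1.42 ± 0.18 (SE, limma, adjusted p 1.6e-06), and fell with age in EV. Cd44, the hyaluronan receptor, had 164 ± 30.1 in 3K and 61.4 ± 25.6 in EV (SD over 5 libraries), a log2 fold change of 1.49 ± 0.29 (SE, limma, adjusted p 0.00084). Cd9, a tetraspanin that binds integrins, had 65.2 ± 6.73 in 3K and 28.0 ± 7.17 in EV (SD over 5 libraries), a log2 fold change of 1.23 ± 0.2 (SE, limma, adjusted p 8.6e-05). The genes named from these lists were picked for groups that did not overlap, so the lack of overlap is no further result. Plat, the tissue plasminogen activator, had 518 ± 54.8 in 3K and 338 ± 30.1 in EV (SD over 5 libraries), a log2 fold change of 0.61 ± 0.094 (SE, limma, adjusted p 4.4e-05), and Adamts1, a protease of proteoglycans, had a log2 fold change of 1.44 ± 0.45 (SE, limma, adjusted p 0.042) at few reads. Tgfb3 had 0.69 ± 0.16 (SE, limma, adjusted p 0.0054), Col5a3 had 0.60 ± 0.13 (SE, limma, adjusted p 0.0027), and P4hb, a subunit of prolyl 4-hydroxylase, had 0.14 ± 0.038 (SE, limma, adjusted p 0.018). Smoc1, a relative of Sparc, had 0.29 ± 0.079 (SE, limma, adjusted p 0.018), and Spock3, of the testican family, had 0.31 ± 0.068 (SE, limma, adjusted p 0.0035). Adamts1 had a log2 fold change of 1.44 ± 0.45 (SE, limma, adjusted p 0.26) at day 6 as well, and of 0.05 at day 12.

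Lower in 3K at day 19 were Fbln2, which codes for fibulin-2 of basement membranes and elastic fibres, with 49.5 ± 12.9 in 3K and 88.9 ± 17.2 in EV (SD, n = 5) and a log2 fold change of -0.85 ± 0.21 (SE, limma, adjusted p 0.0092). Htra1, a secreted protease that cuts matrix proteins and binding proteins of insulin-like growth factors, had 442 ± 13.7 in 3K and 595 ± 70.2 in EV (SD over 5 libraries), a log2 fold change of -0.42 ± 0.09 (SE, limma, adjusted p 0.0023). The neuronal heparan sulfate proteoglycan Sdc3 had -0.23 ± 0.055 (SE, limma, adjusted p 0.0057) and the membrane-bound protease Mmp17 -0.18 ± 0.054 (SE, limma, adjusted p 0.035). These genes too were picked for lack of overlap between 3K and EV. Fbln2 had log2 fold changes of -0.73 ± 0.21 (SE, limma, adjusted p 0.21) at day 6 and -0.43 ± 0.21 (SE, limma, adjusted p 0.61) at day 12. Matn2 was also lower in 3K at day 19 without overlap, but at most 3 genes were named for each list. It had 174 ± 23.3 in 3K and 251 ± 35.0 in EV (SD over 5 libraries), a log2 fold change of -0.52 ± 0.14 (SE, limma, adjusted p 0.018). The other genes of these lists called at day 19 had libraries that overlapped. Among them were Nid2, Vasp, Igfbp7 and Cd81, which were higher, and Ptk2b, Fbln5 and Fstl5, which were lower.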

How the data were processed

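RNA of 30 rat culture libraries was sequenced after SMART-Seq and Nextera XT preparation. Per the labels and the study's methods, the aligner was STAR 2.5.2b and gene counts came from RSEM 1.2.31, on Rnor 6.0 with the αSyn 3K vector added and after FastQC checks. The signal values deposited by the authors are these gene counts divided by a DESeq2 size factor of each library (0.8009 to 1.1843). All values (100%) were whole reads within 0.01 of a read, so reads were recovered. Depth was 4747019 to 7035869 reads, which leaves genes with few reads imprecise, and reads of amplified cDNA are not independent molecules. The number of value columns not mapped to a library was 0.

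The 6 groups entered 1 limma fit (3.58.1, under R 4.3.3) on log2(normalized count + 1) with a trended, moderated spread, two-sided, with Benjamini-Hochberg adjustment over 12911 of 20634 genes with any read (normalized count of 10 or more in 5 or more libraries), threshold 0.05. Fold changes on this scale understate those of low genes. Exact permutation tests took every labeling of 5 against 5 libraries. Alternatives were edgeR 4.0.16 and DESeq2 1.42.0 on recovered reads, pseudocounts of 0.5 and 5, other filters and scalings, fits of only the compared groups, a replicate block, the mitochondrial share as a covariate and leaving out each library. The limma code was tested on simulated data.

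Members and the 24 gene lists were chosen with earlier results of these data known. Of 365 list genes 11 were not matched by symbol, and Col23a1, with several entries, was left out. Every member past the threshold in a 3K comparison was named with its libraries, the members that changed most with age were named for each role, and of other lists at most 3 genes called at day 19 without overlap. Promoter letters came from RefSeq (GRCr8), where 30 members had a window. No gene lengths were used. Tables were written with pandas 2.3.3, numpy 2.4.6 and scipy 1.17.1 under Python 3.11.15, and figures with matplotlib 3.10.9.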

Additional observations from a re-analysis of the deposited data

Results flagged for a closer look

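Highest libraries far from the rest of their group were looked for in 96 groups of 5 libraries, those of the 10 members that differed between 3K and EV and of the 6 members with few reads, and chance alone marks about 1 in 20. Nid1 was at 681 in 1 library of 3K at day 12 (replicate 4), with the next at 556. Itgb5 was at 469 in 1 library of EV at day 6 (replicate 4), with the next at 432.

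The other marks were on members with few reads, and several fell on the same libraries. The 3K library of replicate 3 at day 19 had the highest Col1a1 (64.8, next 1.71), Col3a1 (31.8, next 0) and Lama4 (14.7, next 3.43) of its group. The EV library of replicate 5 at day 19 had the highest Col1a1 (35.1, next 1.97) and Col3a1 (9.3, next 1.08). The EV library of replicate 3 at day 6 had the highest Col1a1 (5.4, next 1.25) and Col3a1 (13, next 0). Col3a1 was at 10.01 in the EV library of replicate 1 at day 12, with the next at 0. In the EV library of replicate 3 at day 19 Col18a1 was at 9.75 (next 2.88) and Itga1 at 1.08 (next 0). Itga1 was at 0.903 in the 3K library of replicate 1 at day 6, with the next at 0.

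The effect of αSyn 3K differed between day 6 and day 19 for 5 members, by the limma contrast between the days. The difference on the log2 scale was 0.59 for Ddr1 (adjusted p 0.00014), -0.31 for Podn (adjusted p 0.0025), 0.44 for Sparc (adjusted p 0.01), 1.19 for Fn1 (adjusted p 0.03) and -0.28 for Serpinh1 (adjusted p 0.036). The 4 groups in each contrast share no library.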

How the results depend on the processing

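No call of a member between 3K and EV changed direction under any alternative. At day 6 the members called lower were 1 in the fit as reported, 2 with DESeq2 (Itgb5 and Serpinh1) and 0 with the compared groups alone, and all genes called were 29, 53 and 15. At day 12 all genes called were 56, 95 with DESeq2 and 135 with the compared groups alone. Of the effects at day 19 against day 6, members called lower were 1 in place of 2 with equal totals, with equal upper quartiles and with no filter on low values, where Serpinh1 was lost.

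Leaving out 1 library at a time gave 0 to 2 members lower and 16 to 37 genes called at day 6 (16 without the 3K library of replicate 1 and 17 without the 3K library of replicate 5 or the EV library of replicate 1), and 4 to 5 members lower and 36 to 61 genes called at day 12 (36 without the 3K and 37 without the EV library of replicate 2). At day 19 it gave 4 to 6 members higher and 4 to 5 lower. From day 6 to day 12 in EV it gave 1 to 4 members lower (1 without the EV library of replicate 3 at day 6), and for the effect at day 19 against day 6 it gave 2 to 5 members higher and 1 to 2 lower. Fstl1 at day 19 was not called with the compared groups alone (limma, adjusted p 0.093) or with the mitochondrial share as a covariate (limma, adjusted p 0.059). Fn1 in the last contrast had an adjusted p of 0.057 (limma) with no filter.

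Same-numbered libraries of 3K and EV correlated at r of -0.12 to 0.19 over residuals, so numbers were not taken to pair them. With the replicate block all 20 calls of members in the 3K comparisons were kept, and the members called at day 19 were 5 higher and 5 lower. Equal totals or upper quartiles moved the median of all genes by less than 0.1. The 6 members under the filter on low values entered the limma fit only where no filter was applied.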
